A study of Mus musculus with 7 samples.

Results

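Alveolar macrophages are the resident phagocytes of the air spaces, and the 10 genes described here are used as their markers in mouse lung. Other cells of whole lung also make some of these genes, and the part of such cells was not tested. The genes are Marco, Mrc1, Ear1, Ear2, Pparg, Itgax, Atp6v0d2, Ctsk, Krt79 and Plet1, picked by symbol from the 28828 entries of a whole-lung RNA sequencing count table. All 10 were found, and all 10 were among the 19832 genes that passed a filter on low counts. The table holds 7 lung libraries of C57BL/6 mice, 4 of wild type genotype (WT2, WT3, WT4 and WT6) and 3 of a knockout of the secretoglobin gene Scgb3a2 (KO3, KO4 and KO5), named by the numbers in their titles. The labels give no age, sex, litter, treatment or collection time, do not say which part of Scgb3a2 the allele removes, and do not say that each library came from its own mouse. The p-values below therefore measure the spread between these libraries, which may be technical in part.

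An alveolar macrophage takes up inhaled particles, bacteria and spent surfactant. Its identity depends on the cytokine GM-CSF, made in large part by alveolar epithelium, and on TGF-beta, which together induce the nuclear receptor PPAR gamma, encoded by Pparg. PPAR gamma in turn supports the lipid handling that surfactant clearance requires. SCGB3A2 is a small protein secreted by airway club cells, and Marco, a scavenger receptor of macrophages, has been reported as a receptor for it. The comparison asks whether the markers of the cell that carries this receptor differ in lungs where the ligand gene is disrupted.

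The libraries carried their labelled genotype and tissue. Scgb3a2 in KO3, KO4 and KO5 was at 0.51%, 0.48% and 1.06% of the wild type mean, and the totals ranged from 13071262 to 16480006 counts per library. Levels are given as CPM, the usual scaling of counts to library size, here with TMM-scaled sizes. Levels of different genes are ranked as RPKM, which is CPM per kilobase of annotated exon. Where counts or CPM of different genes are set side by side or as a ratio, gene length is not corrected for. The lung markers Sftpc (surfactant protein C) and Ager (of alveolar type 1 cells) averaged 7411 and 680 RPKM. In whole lung, fewer cells of a type and less RNA per cell cannot be told apart.

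No alveolar macrophage marker passed the test between genotypes. Marco had the largest fold change, at 9.61 ± 2.22 CPM in wild type (SD, n = 4) and 12.4 ± 3.73 CPM in knockout lung (SD, n = 3), and 9 of the 10 genes had a positive log2 fold change. For every member the edgeR quasi-likelihood test, adjusted over all genes by the Benjamini-Hochberg method, gave an adjusted p of 0.9998, against the threshold of 0.05. Over all genes tested, 7 of 19832 (0.0353%) were called, so that a count of 0 among 10 members is near the background. DESeq2 also called 0 members. An unadjusted p under 0.05 was found for 0 members and for 2.87% of all genes. No member had all knockout libraries above all wild type libraries (2.11% of all genes) or all below them (1.61%).

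**Figure D1:**
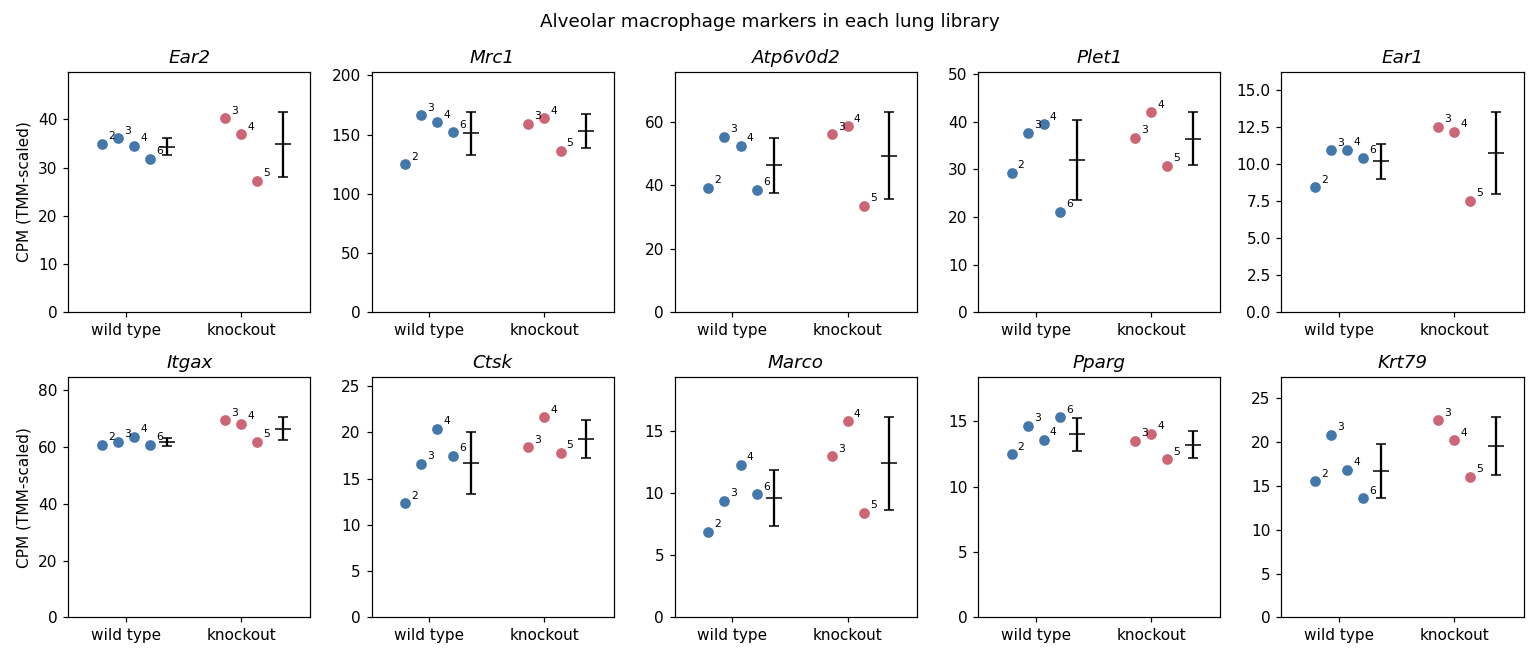
CPM on the TMM scale (vertical axes, from 0) of each of the 10 markers, ordered by RPKM, with 1 point per library (blue wild type, red knockout, the number being that of the title) and bars for mean and SD (n = 4 and n = 3). The groups overlap in every panel, and KO5 lies below KO3 and KO4 in all 10, for example at 8.40 CPM of Marco against 12.98 CPM in KO3.

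In levels per exon length, the markers spanned more than an order of magnitude. Ear2 was the most abundant at 48.0 ± 5.72 RPKM (SD over all 7 libraries), above each of the others in every library. Mrc1 followed at 23.8 ± 2.43 RPKM and also stood above the next gene in all 7 libraries. Atp6v0d2 (17.5 ± 3.75 RPKM) and Plet1 (17.4 ± 3.70 RPKM) did not differ beyond their spread, with Atp6v0d2 above Plet1 in 3 of 7 libraries. Ear1 (14.3 ± 2.51), Itgax (13.3 ± 0.74) and Ctsk (11.8 ± 1.96 RPKM) likewise overlapped their neighbours. The lowest levels were those of Marco (5.61 ± 1.58), Pparg (4.63 ± 0.39) and Krt79 (3.77 ± 0.69 RPKM), with Marco above Pparg in 4 of 7 libraries. For comparison, the median of the 19719 tested genes with an annotated length was 3.77 RPKM, so that Krt79 sat at the middle of the lung transcriptome and Ear2 at its 96.8th percentile. Lengths are unions of all annotated exons, which lowers the RPKM of genes with many alternative exons.

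Ear1 and Ear2 encode eosinophil-associated ribonucleases, small secreted enzymes that in resting mouse lung are made mainly by alveolar macrophages. The pair arose by gene duplication and lies on chromosome 14 (GRCm38), Ear1 at 43818765 to 43875517 on the minus strand and Ear2 at 44102654 to 44103534 on the plus strand. Their promoters are shown to give how alike the copies are, since closely related copies limit what short reads can separate. Over the libraries, the log2 CPM of Ear1 and Ear2 had a Pearson r of 0.82. Ear1 had a higher r with Atp6v0d2 (0.90), Mrc1 (0.86) and Marco (0.84), so that a like profile was not particular to the pair. A link between promoter and profile was not tested. The windows run from 250 bases before to 50 bases after the RefSeq start in GRCm38.p6. For Ear1 this window lies inside the GENCODE span given above, far from its upstream end at 43875517. The annotations thus place the start of Ear1 differently, and its window is a promoter by RefSeq alone. Capitals mark letters that differ between the copies where the windows overlap.
Ear1 (chr14:43819590-43819889, minus strand): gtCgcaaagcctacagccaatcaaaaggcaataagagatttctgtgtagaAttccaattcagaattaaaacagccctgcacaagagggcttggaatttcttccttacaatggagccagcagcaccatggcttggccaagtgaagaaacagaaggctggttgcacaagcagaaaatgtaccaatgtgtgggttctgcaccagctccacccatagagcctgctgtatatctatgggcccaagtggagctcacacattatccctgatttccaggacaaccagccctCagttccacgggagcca
Ear2 (chr14:44102404-44102703, plus strand): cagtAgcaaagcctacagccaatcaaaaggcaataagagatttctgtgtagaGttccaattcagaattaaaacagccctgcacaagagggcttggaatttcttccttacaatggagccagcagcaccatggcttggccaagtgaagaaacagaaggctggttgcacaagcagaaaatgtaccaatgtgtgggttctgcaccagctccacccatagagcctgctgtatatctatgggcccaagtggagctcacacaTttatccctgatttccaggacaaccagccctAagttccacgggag
Over 298 aligned positions, 294 letters were identical (98.7%), 3 were mismatched and 1 was present in Ear2 only.

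The transcripts of the pair were compared by shared 50-letter words. Of all 50-letter words in the annotated Ear1 transcripts, 23.8% also occur in Ear2, and 28.6% in at least 1 other annotated Ear gene. For Ear2 the corresponding shares were 23.6% with Ear1, 26.0% with Ear10 and 37.6% with any other Ear gene. Ear10 has no entry under that symbol in the count table. No source used here says how the counting treated reads that match several copies, so both genes' counts are uncertain to that extent. The pseudogenes Ear-ps9 and Ear-ps12, on the same strand, and Ang-ps2, on the other, also overlap the annotated Ear1. An antisense gene, Gm49101, overlaps Ear2 and had 4 to 16 counts per library.

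Ear2 had 34.9, 36.1, 34.5 and 31.8 CPM in WT2, WT3, WT4 and WT6 and 40.2, 36.9 and 27.2 CPM in the knockout libraries, in the order KO3, KO4, KO5. The highest and the lowest value were both in knockout lung, and the fold change was 1.01 (95% interval 0.83 to 1.24). Ear1 had 8.44, 10.9, 11.0 and 10.4 CPM in the wild type libraries and 12.5, 12.2 and 7.53 CPM in the knockout libraries, again with both extremes in knockout lung. Its fold change was 1.06 (0.79 to 1.42). The ratio of Ear2 to Ear1 counts lay between 3.04 and 4.14, highest in WT2 and lowest in KO4. The counts of Ear1, Ear2 and the much rarer Ear6 summed to 723, 747, 622 and 601 in the wild type libraries and to 788, 783 and 482 in the knockout libraries. Fitted as a single gene, this sum had a log2 fold change of 0.04 ± 0.14 (SE).

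The enzyme family takes its name from eosinophils, so other eosinophil markers were read alongside. Of 7 listed eosinophil markers, 5 were found and only Alox15, which macrophages also make, passed the filter on low counts. The granule protein gene Prg2 had counts of 0 to 7 per library, the eotaxin receptor gene Ccr3 0 to 3 and the IL-5 receptor gene Il5ra 0 to 12, against 104 to 191 for Ear1 and 376 to 595 for Ear2. Summed over the 5 genes, the level was 1.14 to 5.06 CPM in wild type and 1.149 to 4.56 CPM in knockout libraries.

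The receptors among the markers are Marco and Mrc1. Marco (chromosome 1, 120474538 to 120505024, minus strand) is a class A scavenger receptor with a collagenous stalk that binds bacteria and mineral particles. Its counts were 114, 147, 166 and 141 in WT2, WT3, WT4 and WT6 and 192, 248 and 116 in KO3, KO4 and KO5. These were 6.87, 9.39, 12.3 and 9.92 CPM in wild type and 12.98, 15.8 and 8.40 CPM in knockout lung. KO3 and KO4 lay above every wild type library, while KO5 lay below WT3, WT4 and WT6. The fold change of Marco was 1.29 (95% interval 0.91 to 1.85), or 0.37 ± 0.23 on the log2 scale (SE). Single libraries moved it by more than 1.5 times, to 0.16 without KO4, 0.24 without WT2 and 0.59 without KO5, and the direction was positive under all 17 alternatives (0.16 to 0.61). Marco also varied most among the members, with a coefficient of variation of 28.2% over the 7 libraries, against 7.89% from counting error alone and a median of 16.2% over all genes.

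Mrc1 (chromosome 2, 14229392 to 14332057, plus strand) encodes the mannose receptor CD206, a C-type lectin carried by alveolar and other tissue macrophages and by lymphatic endothelium. It had 125, 166, 160 and 152 CPM in the wild type libraries and 159, 164 and 136 CPM in the knockout libraries. Its groups overlapped fully, with WT2 lowest and WT3 highest. The fold change was 1.01 (0.85 to 1.21), and its sign turned in 6 of 17 alternatives. A microRNA gene, Mir511, overlaps Mrc1 and had 2 to 13 counts per library. Lymphatic endothelium markers other than Mrc1 had 0 called genes of 7 tested and a median log2 fold change of -0.04, with Flt4, a receptor for lymphatic growth factors, at -0.18 ± 0.15 (SE).

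The other scavenger and C-type lectin receptors had no called gene of 26 tested, 16 of them positive and 10 negative, and their median log2 fold change was 0.03. Msr1, the scavenger receptor closest in kind to Marco, had a level of 2.83 to 4.60 CPM in wild type and 2.91 to 4.05 CPM in knockout lung. Clec10a, a galactose-binding lectin of macrophages and dendritic cells, was the member of this list with the smallest p. It had 1.51, 1.92, 3.03 and 2.74 CPM in wild type and 3.72, 3.63 and 5.86 CPM in knockout lung, groups that did not overlap. Its log2 fold change of 0.94 ± 0.29 (SE) did not pass in edgeR (adjusted p = 0.9998). The phospholipase receptor Pla2r1 (-0.27 ± 0.14) and sialoadhesin, encoded by Siglec1 (0.18 ± 0.11), came next, each as log2 fold change with SE.

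Pparg (chromosome 6, 115360951 to 115490399, plus strand) was the only marker with a negative difference. It had 12.5, 14.7, 13.6 and 15.3 CPM in the wild type libraries and 13.5, 14.1 and 12.1 CPM in the knockout libraries. All knockout values lay within or just below the wild type range, and the fold change was 0.94 (95% interval 0.77 to 1.16). Its coefficient of variation of 8.38% was close to the 7.0% of counting error alone, so that these libraries held little spread for Pparg beyond counting. An antisense gene, Gm44079, overlaps Pparg and had 5 to 23 counts per library, which cannot be separated without knowing the strand setting.

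The signals that induce Pparg showed no called gene either. Of 21 genes of GM-CSF and TGF-beta signalling and of transcription factors of these cells, 7 were on the positive side and 14 on the negative, and their median log2 fold change was -0.03. Csf2, which encodes GM-CSF itself, was rare, with 42, 32, 17 and 7 counts in WT2, WT3, WT4 and WT6 and 34, 27 and 9 counts in KO3, KO4 and KO5. The lowest counts of Csf2 were in WT6 and KO5, 1 library of each genotype. Csf2rb2, an IL-3 receptor beta chain related to that of the GM-CSF receptor, had 6.57, 8.88, 10.7 and 9.56 CPM in wild type and 10.4, 15.7 and 13.5 CPM in knockout lung. Its groups overlapped by WT4 alone, and its log2 fold change of 0.56 ± 0.20 (SE) did not pass. The liver X receptor alpha gene Nr1h3 (-0.22 ± 0.12) and Itgb6, the epithelial integrin chain that activates TGF-beta (-0.32 ± 0.20), followed by p, with log2 fold changes and SE.

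Lipid handling genes, many of them PPAR gamma targets, were evenly split, with 10 positive and 10 negative of 20 tested, 0 called and a median log2 fold change of -0.01 (0.03 without WT6). Leading values by p were the fatty acid binding protein Fabp5 (-0.27 ± 0.14), the cholesterol exporter Abca1 (0.21 ± 0.11) and the desaturase Scd1 (-0.26 ± 0.15). Fabp4 and Cidec, a fatty acid binding protein and a lipid droplet protein found in alveolar macrophages and in fat cells, were highest in WT6. Fabp4 had 51.3 CPM in WT6, 10.7 to 17.6 CPM in WT2, WT3 and WT4, and 9.99 to 18.1 CPM in knockout lung. Cidec had 21.3 CPM in WT6, 10.9 to 12.3 CPM in WT2, WT3 and WT4, and 10.3 to 15.6 CPM in knockout lung. The adipocyte hormone gene Adipoq had 13.5 CPM in WT6, 0.38 to 2.07 CPM in WT2, WT3 and WT4, and 0.83 to 2.97 CPM in knockout lung. The 10 adipocyte markers, none at 0 in all libraries, summed to 94.4 to 220 CPM in wild type and 89.3 to 109 CPM in knockout lung, and their part in the Fabp4 and Cidec values was not tested. Pparg, given above, was also highest in WT6.

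Itgax (chromosome 7, 128129547 to 128150657, plus strand) encodes CD11c, the integrin alpha X chain that pairs with the beta 2 chain on alveolar macrophages and dendritic cells. It was the most even marker, with 60.8, 61.7, 63.6 and 60.8 CPM in wild type and 69.3, 68.2 and 61.8 CPM in knockout lung. KO3 and KO4 stood above all wild type libraries, and KO5 lay between WT3 and WT4. The fold change was 1.08 (95% interval 0.94 to 1.24), the narrowest interval of the 10 on the log2 scale. Dendritic cell markers had 0 called genes of 15 tested and a median log2 fold change of 0.02. Among them Flt3, the growth factor receptor of dendritic cell precursors, had 8.16 to 8.50 CPM in wild type and 9.29 to 12.5 CPM in knockout lung without overlap (log2 fold change 0.37 ± 0.15 SE, adjusted p = 0.9998 in edgeR). The lectin Mgl2 of dendritic cells and interstitial macrophages had a value of the opposite sign (-0.42 ± 0.16 SE). Other integrins and adhesion genes had 0 called of 10, 7 of them positive, led by Itgal (0.26 ± 0.22 SE), the alpha chain of LFA-1.

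Atp6v0d2 and Ctsk belong to the degradative machinery that alveolar macrophages share with osteoclasts. Atp6v0d2 (chromosome 4, 19876841 to 19922605, minus strand) encodes a subunit of the membrane part of the vacuolar proton pump. It had 39.2, 55.2, 52.3 and 38.5 CPM in the wild type libraries and 56.0, 58.5 and 33.5 CPM in the knockout libraries. The values fell into a low set (WT2, WT6 and KO5) and a high set (the other 4), with both genotypes in each. Its fold change between genotypes was 1.07 (95% interval 0.78 to 1.45). Atp6v0d1, the widely expressed copy of this subunit, ranged only from 56.5 to 67.2 CPM, so that the ratio of the copies in CPM ran from 0.59 in KO5 to 0.89 in WT3. The spread of Atp6v0d2 (coefficient of variation 21.4%) was thus larger than that of Atp6v0d1 (7.75%).

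Ctsk (chromosome 3, 95499256 to 95509362, plus strand) encodes cathepsin K, a collagen-degrading cysteine protease. Its levels were 12.4, 16.6, 20.4 and 17.4 CPM in wild type and 18.4, 21.6 and 17.8 CPM in knockout lung. Here KO5 was not among the lowest libraries, and WT4 stood above KO3 and KO5. The fold change was 1.16 (0.90 to 1.49). Proton pump subunits and lysosomal proteases had 0 called genes of 27 tested, 14 positive and 13 negative, a median of 0.002 and a range of -0.09 to 0.16 on the log2 scale, led by the lysosomal regulator Tfeb (0.16 ± 0.12 SE). Of 9 osteoclast markers, 5 passed the filter on low counts, with 0 called. Of these 5, 4 were positive and 1 was negative, with a median log2 fold change of 0.14. The 9 summed to 77.1 to 93.4 CPM in wild type and 85.6 to 96.4 CPM in knockout lung. Dcstamp and Ocstamp, both needed for cell fusion, were rare, at 1 to 7 and 1 to 4 counts per library. Acp5, the tartrate-resistant phosphatase that macrophages also make, had 3.96 to 7.81 CPM in wild type and 5.41 to 9.85 CPM in knockout lung (log2 fold change 0.63 ± 0.28 SE, not passing). Fibroblasts are another source of Ctsk, and their 9 markers had 0 called, 1 positive and 8 negative, and a median log2 fold change of -0.08. In edgeR an unadjusted p under 0.05 was found for 2 of the 9, both lower in knockout lung, and for 2.87% of all genes. The 9 markers summed to 2409 to 2776 CPM in wild type and 2069 to 2226 CPM in knockout lung. That separation of the sums rested on Inmt, a methyltransferase of lung fibroblasts. Inmt had 743 to 1290.4 CPM in wild type and 637 to 701 CPM in knockout lung (log2 fold change -0.50 ± 0.17 SE, not passing), and the other 8 markers summed to 1486 to 1718 CPM and 1432 to 1524 CPM, which overlapped.

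Krt79 (chromosome 15, 101929332 to 101940324, minus strand) is a type II keratin otherwise known from hair follicle and sebaceous epithelium. Its levels were 15.5, 20.8, 16.8 and 13.6 CPM in wild type and 22.4, 20.2 and 16.0 CPM in knockout lung. KO3 was highest and WT6 lowest, and WT3 lay above KO4 and KO5. The fold change was 1.17 (95% interval 0.91 to 1.51). Squamous and basal epithelium was nearly silent in these libraries, with 0 to 13 counts of Krt5 and 0 to 11 of Krt14 per library, against 193 to 332 of Krt79. Its 9 measured markers summed to 5.84 to 10.2 CPM in wild type and 3.72 to 9.56 CPM in knockout lung, and the smallest p in the list was that of Trp63 (log2 fold change -0.39 ± 0.33 SE), a basal cell factor. Other epithelial keratins were not rare. Over 5 genes they summed to 543 to 908 CPM in wild type and 526 to 757 CPM in knockout lung. All 4 tested ones lay higher in each of WT3, WT4, KO3 and KO4 than in WT2, WT6 and KO5, as Krt79 did. So did 10.2% of all genes tested. The part of such epithelium in the Krt79 values was not tested.

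Plet1 (chromosome 9, 50494525 to 50505482, plus strand) encodes a surface glycoprotein first described in placenta. It had 29.3, 37.7, 39.4 and 21.1 CPM in the wild type libraries and 36.6, 41.9 and 30.7 CPM in the knockout libraries. WT6 was lowest and KO4 highest, and the fold change was 1.14 (0.84 to 1.55). The antisense gene Plet1os overlaps it, with 25 to 41 counts per library against 300 to 659 for Plet1. The part of cells other than alveolar macrophages in the Plet1 values was not tested.

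**Figure D2:**
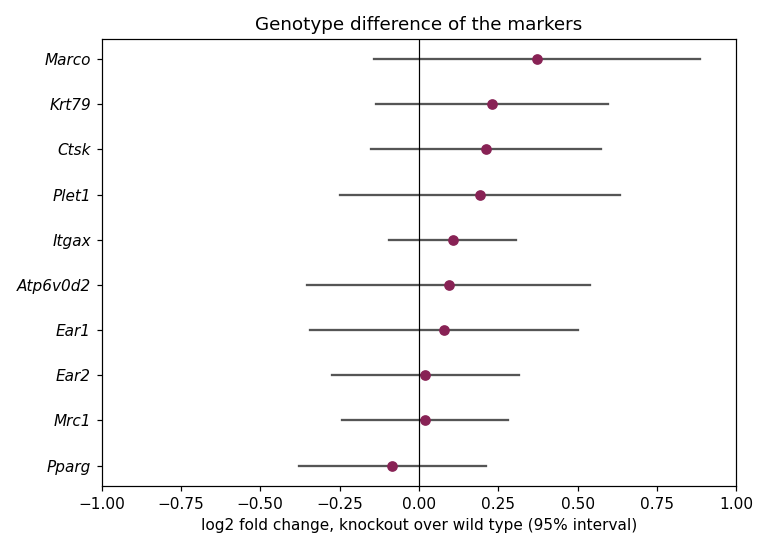
Log2 fold change of knockout over wild type (horizontal axis) for each marker, as points with 95% intervals from the edgeR fit over 4 wild type and 3 knockout libraries. All 10 intervals cross 0, from Pparg (-0.08) to Marco (0.37).

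As a group, the markers had a median log2 fold change of 0.10, beside -0.01 over all genes tested, where 48.0% of genes had a positive value. The count of positive members and the median rested on single libraries. Without KO5 the median was 0.28, without KO3 or KO4 it was 0.03, without WT2 0.06, without WT6 0.07 and without WT3 0.15. The number of members with a positive value was 9 with all libraries but 5 without KO3 and 5 without KO4. Upper ends of the 95% intervals ran from a 1.16-fold (Pparg) to a 1.85-fold (Marco) higher level in knockout lung, and lower ends from 0.77-fold (Pparg) to 0.94-fold (Itgax).

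The markers tended to be high or low in the same libraries, and these were of both genotypes. Their summed level was 430, 424, 441 and 453 CPM in WT3, WT4, KO3 and KO4, and 345, 371 and 351 CPM in WT2, WT6 and KO5. The sets were drawn from these values, so that their lack of overlap follows from that choice, and each held both genotypes. The high set is that of the titles numbered 3 and 4, a split noticed in these values, and the labels do not say what the numbers mean. Over the markers, KO4 was above the 7-library median in 10 of 10, whereas KO5 and WT2 were above it in 0 of 10 and WT6 in 1 of 10, Pparg. Ear1, Mrc1, Krt79, Atp6v0d2 and Plet1, 5 of the 10 members, lay higher in each of the 4 libraries numbered 3 and 4 than in the other 3. Of all genes tested, 10.2% did so. Because the split was noticed in the markers' own values, their share is a description and not a test. The ratio of the means of these sets was largest for Marco (1.50) and Atp6v0d2 (1.50), followed by Plet1 (1.44), and smallest for Pparg (1.05).

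Other measurements moved with this division. The 9 lung tissue markers, which include surfactant and type 1 cell genes, summed to 29900 to 32391 CPM in the libraries numbered 3 and 4 and to 19679 to 27491 CPM in WT2, WT6 and KO5. Of these 9 genes, 5 lay higher in each library of the former set and 0 lay lower. Dbp, a transcription factor driven directly by the circadian clock, had 25.9, 17.9, 15.2 and 10.1 CPM in WT3, WT4, KO3 and KO4 and 84.1, 66.1 and 45.0 CPM in WT2, WT6 and KO5. The clock repressor Nr1d1 had 21.5 to 40.9 CPM in the former and 59.7 to 128 CPM in the latter. Of 13 clock genes, 7 lay lower in each of the 4 libraries numbered 3 and 4 than in the other 3, beside 9.75% of all genes tested. Clock lay higher in each, as did 10.2% of all genes. The remaining 5 did neither, among them Per2 (187 to 239 CPM) and Cry1, which was highest in KO5 at 38.1 CPM. Npas2 and Arntl, also among these 5, had log2 fold changes between genotypes of 0.92 ± 0.28 and 0.89 ± 0.30 (SE), which did not pass. The part of the lung tissue and clock genes in the markers' values was not tested. With a term for the numbers 3 and 4 in the fit, the median log2 fold change of the markers between genotypes was 0.04, with 5 positive and 0 called. Among the 4 libraries numbered 3 and 4 alone this median was 0.13, with 8 positive and 0 called. Both are descriptions, since the split was noticed in the markers' values.

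**Figure D3:**
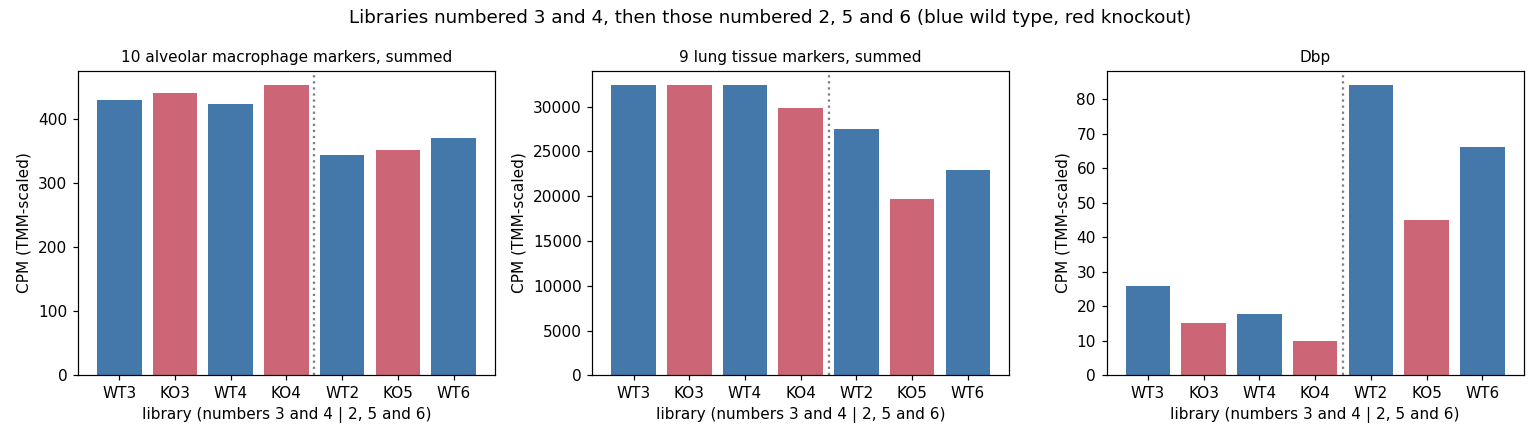
Bars of TMM-scaled CPM (vertical axes, from 0) in each library for the 10 markers summed, for 9 lung tissue markers summed and for Dbp, with the libraries numbered 3 and 4 first, a split noticed in these values, and with blue wild type and red knockout. The 4 libraries left of the dotted line have 424 to 453 CPM of the markers and 10.1 to 25.9 CPM of Dbp, and the 3 right of it have 345 to 371 CPM and 45.0 to 84.1 CPM.

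Genes whose profile over the 7 libraries was most like the markers were sought among 12698 other genes with a mean of at least 5 CPM. For the mean standardised log2 CPM of the 10 markers these were Kcmf1, a ubiquitin ligase (Pearson r = 0.99), the membrane protein gene Dcbld2 (0.98), the circadian activator Clock (0.98), the methyltransferase Prmt8 (0.97) and Dtnbp1 (0.97), an organelle biogenesis gene. For Marco alone they were the cell cycle inhibitor Cdkn1a (0.99), the small heat shock protein Hspb8 (0.97), Stt3b of protein glycosylation (0.97), the lipid kinase Pi4kb (0.95) and the lipase Abhd6 (0.95). Each r is over 7 libraries and was chosen as the highest of many, so that it is a description. None of these 10 genes was a listed macrophage gene. Clock itself had 181 to 210 CPM in the libraries numbered 3 and 4 and 133 to 147 CPM in the other 3.

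Alveolar macrophage genes outside the 10 markers also had no called gene, and most of them did not follow the split by number. Of 25 further markers, 18 were on the positive side and 7 on the negative, with 0 called and a median log2 fold change of 0.08. In each library numbered 3 and 4, 8 of the 25 lay higher than in WT2, WT6 and KO5, and 1 lay lower. Of all genes tested, 10.2% and 9.75% did so. The other 16 did neither, Chil3 and Siglecf among them. Other cells of whole lung may add to the 8, which was not tested. Siglecf, the lectin used to sort these cells, had 9.16, 11.7, 10.1 and 10.1 CPM in wild type and 10.5, 12.0 and 8.33 CPM in knockout lung, with the lowest value in KO5 and the highest in KO4. Its log2 fold change was 0.01 ± 0.17 (SE). Chil3, the chitinase-like protein Ym1 and the most abundant of the textbook markers at 171 RPKM, had 197, 278, 275 and 315 CPM in wild type and 275, 327 and 284 CPM in knockout lung (0.15 ± 0.15 SE on the log2 scale). Car4, a membrane carbonic anhydrase also made by lung capillaries, had 93.0 CPM in WT6, 93.4 CPM in KO5 and 123 to 176 CPM elsewhere. The smallest p in this list were those of Cd2 (0.39 ± 0.17), which T cells also carry, the protease inhibitor Serpinb1a (0.38 ± 0.18) and Fabp5, given above, each as log2 fold change with SE.

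Macrophages as a whole and their interstitial and monocyte relatives likewise had no called gene. Pan-macrophage markers had a median log2 fold change of 0.09 over 12 genes, 7 of them positive. Laptm5, a lysosomal protein of blood cells, had 81.9 to 88.7 CPM in wild type and 91.3 to 111 CPM in knockout lung without overlap (log2 fold change 0.24 ± 0.10 SE, not passing), and the immunoglobulin receptor Fcgr1 had a log2 fold change of 0.33 ± 0.26 (SE). Cd68, a lysosomal glycoprotein of macrophages, had 18.8, 23.9, 27.1 and 17.8 CPM in wild type and 28.7, 33.4 and 16.1 CPM in knockout lung, low in WT2, WT6 and KO5 as the markers were. Of the 12 pan-macrophage genes, Cd68, Ctss (a lysosomal protease) and Fcer1g (an immunoglobulin receptor chain) lay lower in each of these 3 libraries than in the other 4. Csf1r, the growth factor receptor shared with monocytes, lay higher in each, at 102, 112 and 113 CPM in WT2, WT6 and KO5 and 83.5 to 89.6 CPM elsewhere. The other 8 did neither. Of all genes tested, 10.2% lay lower in each of WT2, WT6 and KO5 than in the other 4 libraries, and 9.75% higher.

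Interstitial macrophage markers had a median of 0.07 over 15 tested genes, 10 of them positive. The chemokine Ccl8 had 0.52 to 1.27 CPM in wild type and 1.01, 1.91 and 3.91 CPM in knockout lung (log2 fold change 1.46 ± 0.46 SE, not passing), and complement C1qc had 0.23 ± 0.15 (SE). Monocyte markers had a median of -0.05 over 12 genes, and of 0.04 without WT6. Treml4, a receptor of patrolling monocytes, had 2.65, 1.98, 1.18 and 2.74 CPM in wild type and 0.88, 1.08 and 1.01 CPM in knockout lung without overlap. Its log2 fold change of -1.11 ± 0.34 (SE) did not pass in edgeR (adjusted p = 0.9998). Lowest of all lists was the adipocyte list, with a median of -0.78 over 8 tested genes, all negative and none called (1 called with a term for WT6 and KO5). That value rested on WT6, the highest library in sum, since without it the median was -0.13, with 3 positive and 5 negative. Its smallest p was that of the lipase Lipe (log2 fold change -0.26 ± 0.12 SE).

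**Figure D4:**
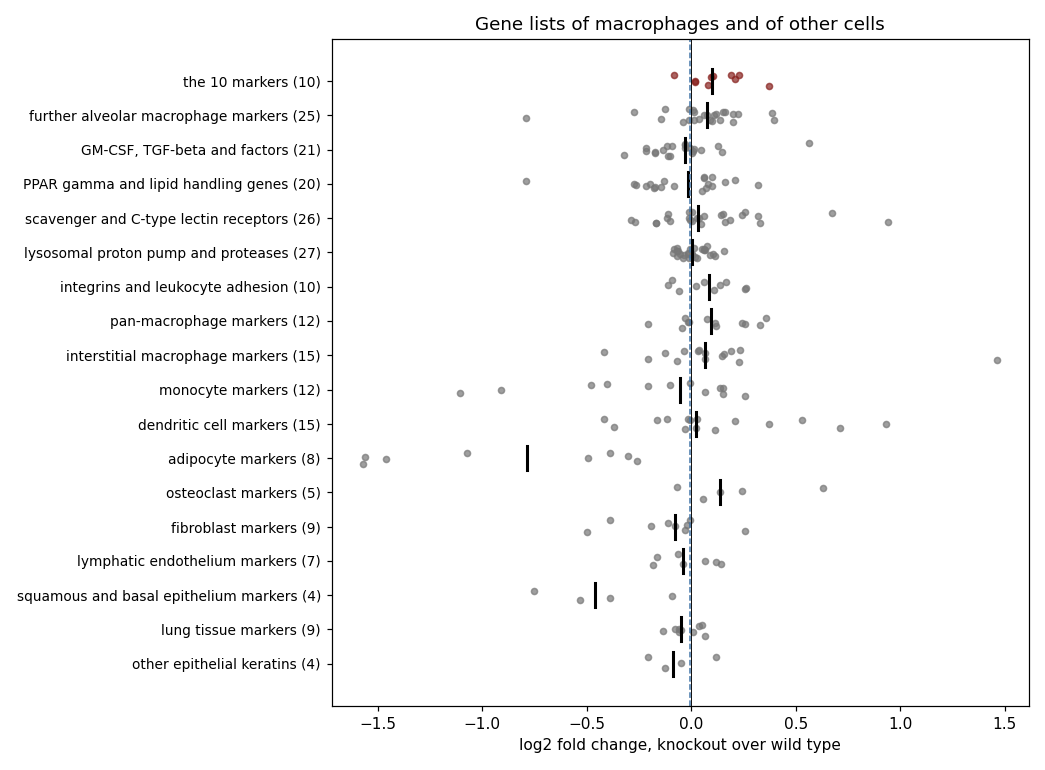
Log2 fold change of knockout over wild type (horizontal axis) for each tested gene of each list (points, with the number of genes in brackets), the list median (black bar) and the median of all genes tested (dashed line, -0.01). The 10 markers lie between -0.08 and 0.37 around a median of 0.10, and lists with fewer than 4 tested genes are not drawn.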

How the data were processed

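Whole-lung total RNA of 7 mouse libraries was sequenced, and the deposited values are raw read counts per gene symbol. Tools listed by the submitters' processing notes are STAR and DESeq2, with mm10 as build. No source used here gives the counting program, annotation or strand setting. Counts were compared with edgeR 4.0.16 in R 4.3.3 (filterByExpr, TMM, robust quasi-likelihood fit on genotype alone, two-sided, Benjamini-Hochberg adjustment over 19832 genes, called under 0.05). SE is the log2 fold change divided by the root of the F statistic, and intervals are 95% from its t distribution. Log2 CPM uses a prior count of 2. The fit was tested on simulated counts whose changes were larger than those of the members, so that test does not cover differences of the members' size. Positions and lengths come from GENCODE M21 (GRCm38), matched by symbol for all 10 members.

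The members, the 19 other gene lists and the alternatives were chosen with earlier results of these data known. Named genes are all members, 5 textbook markers, Atp6v0d1, up to 3 genes with the smallest p per list, and the 5 genes most like Marco and most like the members. Csf2, Msr1, Adipoq, Csf1r, Ctss, Fcer1g, the clock genes and the rare genes given as counts, were chosen after their values were seen. Libraries of 1 genotype differed by a chi-square of at least 4.30 per degree of freedom, so each was counted once. At this depth, 3 counts correspond to 0.18 to 0.22 CPM. Counting error alone gives members a coefficient of variation of 2.10% to 8.02%. Alternatives were DESeq2 1.42.0, other scalings and filters, a replicate block, each library left out, and terms or subsets for libraries that stand apart.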

Additional observations from a re-analysis of the deposited data

Results flagged for a closer look

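In groups of 4, a library was singled out where its gap to the nearest other value, as a share of the group's range, exceeded Dixon's 95% critical value, which chance does in about 1 in 20 groups. The rule was applied to 52 genes, so that a few such libraries come by chance. None of the 10 markers was singled out. Among the other named genes, WT2 stood apart from the other wild type libraries in Cd2 (ratio 0.834, higher), Siglec1 (0.863, higher) and Pi4kb (0.831), and WT6 in Acp5 (0.882, higher).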

How the results depend on the processing

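The count of 0 called members and the positive direction of Marco, Krt79, Ctsk, Itgax and Plet1 held under all 17 alternatives. The number of genes called over the whole table, 7 with all libraries, was 60 with DESeq2, 140 with the replicate block, 14 without WT6 and KO5, 29 with a term for that pair, 18 among libraries numbered 3 and 4, 33 with a term for those numbers, and 3 to 41 with each library left out, where the members' median log2 fold change ran from 0.028 to 0.28. With 0 members called, 1 had an unadjusted p under 0.05 in 5 of the 17 and 0 in the others. Over all genes tested, such a p was found for 393 of 20130 without KO4, the fewest of the alternatives. With the replicate block it was found for 1046 of 19832, the most. The background thus shifted with the setting, and whether 1 member exceeds it was not tested. Among the other lists, the replicate block called 1 pan-macrophage, 1 monocyte and 1 other keratin gene, and a term for WT6 and KO5 called 1 adipocyte gene, where 0 were called otherwise. Only the numbers 3 and 4 occur in both genotypes, and the labels do not say that they pair samples. Same-numbered libraries deviated from their group means with r = 0.24 and 0.20 over genes, and crossed ones with 0.22 and 0.24.

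Log2 fold changes that turned sign were small, and the cause was not tested. With the replicate block they were -0.018 for Mrc1, -0.012 for Serpinb1a, 0.054 for Flt4 and 4.09e-05 for Cidec. Among libraries numbered 3 and 4 they were -0.011 for Mrc1, -0.0034 for Serpinb1a, 0.061 for Flt4 and 0.0072 for Cidec. With a term for these numbers they were -0.00997 for Ear1, -0.034 for Ear2, -0.0201 for Mrc1, -0.025 for Atp6v0d2, -0.048 for Siglecf and -0.014 for Car4. Pparg was 0.025 without WT6 and KO5. Leaving out each library in turn gave -0.045 to 0.283 for Ear1, -0.098 to 0.173 for Ear2, -0.061 to 0.101 for Mrc1, -0.049 to 0.311 for Atp6v0d2, -0.121 to 0.143 for Siglecf, -0.067 to 0.348 for Car4, -0.323 to 0.132 for Cidec, -0.0014 to 0.195 for Kcmf1, -0.0197 to 0.295 for Clock and -0.0042 to 0.437 for Itgal. In Cidec the sign turned without WT6. The coefficient of variation over the libraries exceeded that of counting error in all 10 members, by least in Pparg.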
